A study of Mus musculus with 18 samples.

Results

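Aminoacyl-tRNA synthetases are the enzymes that join each amino acid to its tRNA. The 36 members of the family considered here were taken by gene name, 20 that work in the cytosol and 16 mitochondrial enzymes whose names end in 2. Probes were assigned to them through the platform annotation, and the brightest probe stood for each gene. This gave values for 35 of the 36 members among 19057 genes in all, namely 19 cytosolic and 16 mitochondrial genes. Dars, the cytosolic aspartyl enzyme, was not measured by an assigned probe and is not analysed here.

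The data came from C2C12 myotubes, the multinucleate muscle cells that form when this mouse myoblast line differentiates, in medium with 2% horse serum. Dexamethasone (Dex), a synthetic glucocorticoid, was given at 1 uM, and the controls received its vehicle ethanol at 0.01% of the medium volume. Both treatments ran for 6 h or for 24 h, which made 4 groups on 18 Illumina mouse arrays, with 4 arrays per group at 6 h and 5 per group at 24 h. All groups therefore share the cell line, the serum and the vehicle, and ethanol after the same time is the control of each Dex group. The design text speaks of triplicates, whereas the labels number 4 or 5 samples per group. No label says that these came from separate cultures, so each p-value measures only the spread between the samples, which may be technical.

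A synthetase activates its amino acid with ATP and transfers it to the end of the matching tRNA, and the charged tRNA then feeds the ribosome. In animal cells a group of cytosolic synthetases is bound together in the multi-synthetase complex, and mitochondria use a separate set of nuclear-encoded enzymes for most amino acids. Uncharged tRNA is sensed by the kinase Gcn2, which phosphorylates the initiation factor eIF2 and thereby raises translation of the transcription factor Atf4, whose known targets include asparagine synthetase and many cytosolic synthetase genes. In muscle, glucocorticoids are known for lowering protein synthesis and raising protein breakdown.

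Atf4 binds its targets with C/EBP partners at a composite element whose core reads TGATGNAA, and the synthetase promoters were read for these letters because many cytosolic synthetase genes are known targets of Atf4. Promoter windows from RefSeq on GRCm38.p6, 250 bases before to 50 bases after the start of each gene, were given for 27 of the 36 members. The core was present on either strand in 5 of 13 cytosolic windows and in 0 of 14 mitochondrial windows, against 4.51% of the 27025 genes in that table. For each of these 5 genes a matching stretch of 30 bases is printed in the direction of the gene, with the matched letters in capitals. A match read as TTGCATCA or TTTCATCA is the core on the opposite strand.
Aars, chr8:111033840-111033869, plus strand: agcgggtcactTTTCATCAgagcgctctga
Gars, chr6:55037960-55037989, plus strand: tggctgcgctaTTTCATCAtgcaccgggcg
Iars, chr13:49682126-49682155, plus strand: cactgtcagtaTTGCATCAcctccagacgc
Tars, chr15:11399655-11399684, minus strand: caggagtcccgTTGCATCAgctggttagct
Yars, chr4:129189895-129189924, plus strand: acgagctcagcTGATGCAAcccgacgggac

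The match printed for Aars, the alanyl enzyme, lay 10 to 17 bases after its start. The Gars and Tars matches lay shortly before the start, from -30 to -23 and from -15 to -8, while the Iars and Yars matches lay just after it, at 8 to 15 and 4 to 11. The 4 genes Aars, Gars, Iars and Tars were among the 10 cytosolic genes that fell at 24 h, of which 6 had a window, and Yars was the only gene with the core among the 6 measured cytosolic genes that had a window and were not called. The glucocorticoid response element, searched on both strands, was found in 0 of the 27 windows, against 0.537% of all genes in the table. At so low a share 27 windows are too few for the 0 to set the synthetases apart from other genes. These matches describe letters in a window of 300 bases, and binding was not measured.

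The arrays were described first as a whole. The median intensity of an array, taken over all probes, was 99.8 to 100 at 6 h but only 85.2 to 86.8 at 24 h. Intensities are therefore compared only within a time. A gene near these values sits below the middle of the 19057 genes. The macrophage gene Csf1r, with group means from 81 to 102, was at the 39.2 percentile. Of 10 myotube markers 9 were measured, all at or above the 96.1 percentile of gene levels, and their summed intensity ran from 162000 to 174000 in ethanol and from 164000 to 172000 in Dex at 24 h. Summed markers of macrophages, 3 of 4 measured, ran from 221 to 250 in ethanol and from 229 to 250 in Dex at 24 h, which is near the array median per gene. The satellite cell gene Pax7 was at the 6.99 percentile. The other measured markers of myoblasts and cycling cells were higher, with Myf5 at 36.5, Top2a at 64.3 and Cdk1 at 76.8. The fibroblast genes Dpt, Pdgfra and Col1a1 were at 48.9, 75.1 and 80.3. Of the measured markers, 2 myotube, 1 cycling cell and 1 fibroblast gene rose and 1 myotube and 1 fibroblast gene fell at 24 h, and the fibroblast sums ran from 771 to 939 in ethanol and from 752 to 888 in Dex. The cycling cell sums ran from 660 to 801 in ethanol and from 765 to 964 in Dex, and the part of these cells in the synthetase results was not tested. At 24 h the arrays numbered 1 deviated from their group means in opposite directions, with a correlation across genes of -0.93. Arrays numbered 2 and 3 gave -0.76 and -0.73, so this was not particular to number 1. The lists at 24 h are also given without both arrays numbered 1, the pair with the value furthest from 0. In such bulk samples, fewer cells of a type and less RNA per cell cannot be told apart.

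The first comparison asked which synthetase mRNAs differed between Dex and ethanol after 6 h. None of the 35 passed the test, which was limma with Benjamini-Hochberg adjustment over all 19057 genes and a threshold of 0.05, against 4.46% of all genes called, 2.48% higher and 1.98% lower. An unadjusted p under 0.05 was reached by 5 of the 35, and by 2998 of all 19057 genes. Both lists had a median log2 fold change of 0.07 against 0.00 over all genes, and 26 of the 35 values were above 0. The cytosolic values ran from -0.16 for Rars, the arginyl enzyme, to 0.24 for Mars1, the methionyl enzyme. The mitochondrial values ran from -0.14 for Cars2, the cysteinyl enzyme, to 0.30 for Mars2, the methionyl enzyme.

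Mars2 came nearest to the threshold at 6 h. Its intensity was 289, 369, 320 and 323 in the ethanol arrays and 388, 430, 345 and 439 in the Dex arrays. The lowest Dex array lay below the highest ethanol array, so the groups overlapped. The log2 fold change was 0.30 ± 0.09 (SE, n = 4 per group; limma adjusted p = 0.0558). In other settings the adjusted p was 0.0114 without covariates, 0.0461 among brighter genes only and 0.0191 with the replicate number as a block. It was below 0.05 in 10 of the 18 fits that left out 1 array, Vars2 being called in 2 others. Those fits had 3 covariates in place of 4. Most of the 10 left out a 24 h array, and there the Mars2 value at 6 h stayed at 0.30. A second Mars2 probe gave 0.09. Vars2, the mitochondrial valyl enzyme, was next with 0.24 ± 0.09 and an adjusted p of 0.132 in limma.

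At 6 h the Dex arrays lay wholly above the ethanol arrays for Lars and Wars, the leucyl and tryptophanyl enzymes, and for no other member. Over all genes 5.59% were apart in this direction and 5.31% in the other. Lars read 8400, 7820, 7980 and 7190 in ethanol and 9700, 9370, 8660 and 8780 in Dex. Wars read 1080, 1170, 1170 and 1240 in ethanol and 1260, 1360, 1290 and 1370 in Dex. In limma their log2 fold changes were 0.22 ± 0.10 (adjusted p = 0.309) and 0.18 ± 0.10 (adjusted p = 0.41), and neither passed the test.

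After 24 h with Dex, 10 of the 19 measured cytosolic synthetases fell, 0 rose and 9 did not pass the test, against 8.89% of all genes called in limma, 4.42% lower and 4.47% higher. Among the 10 genes the change in percent ran from -15.5 for Tars, the threonyl enzyme, to -35.4 for Aars. The 19 cytosolic members had a median log2 fold change of -0.25, with 4 values above 0, against 0.00 for the mitochondrial list and 0.00 over all genes. Of the 16 mitochondrial members, 1 fell, 0 rose and 15 did not pass the test. The groups were wholly apart for 6 cytosolic members, all lower in Dex, where 7.86% of all genes were apart in that direction.

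**Figure D1:**
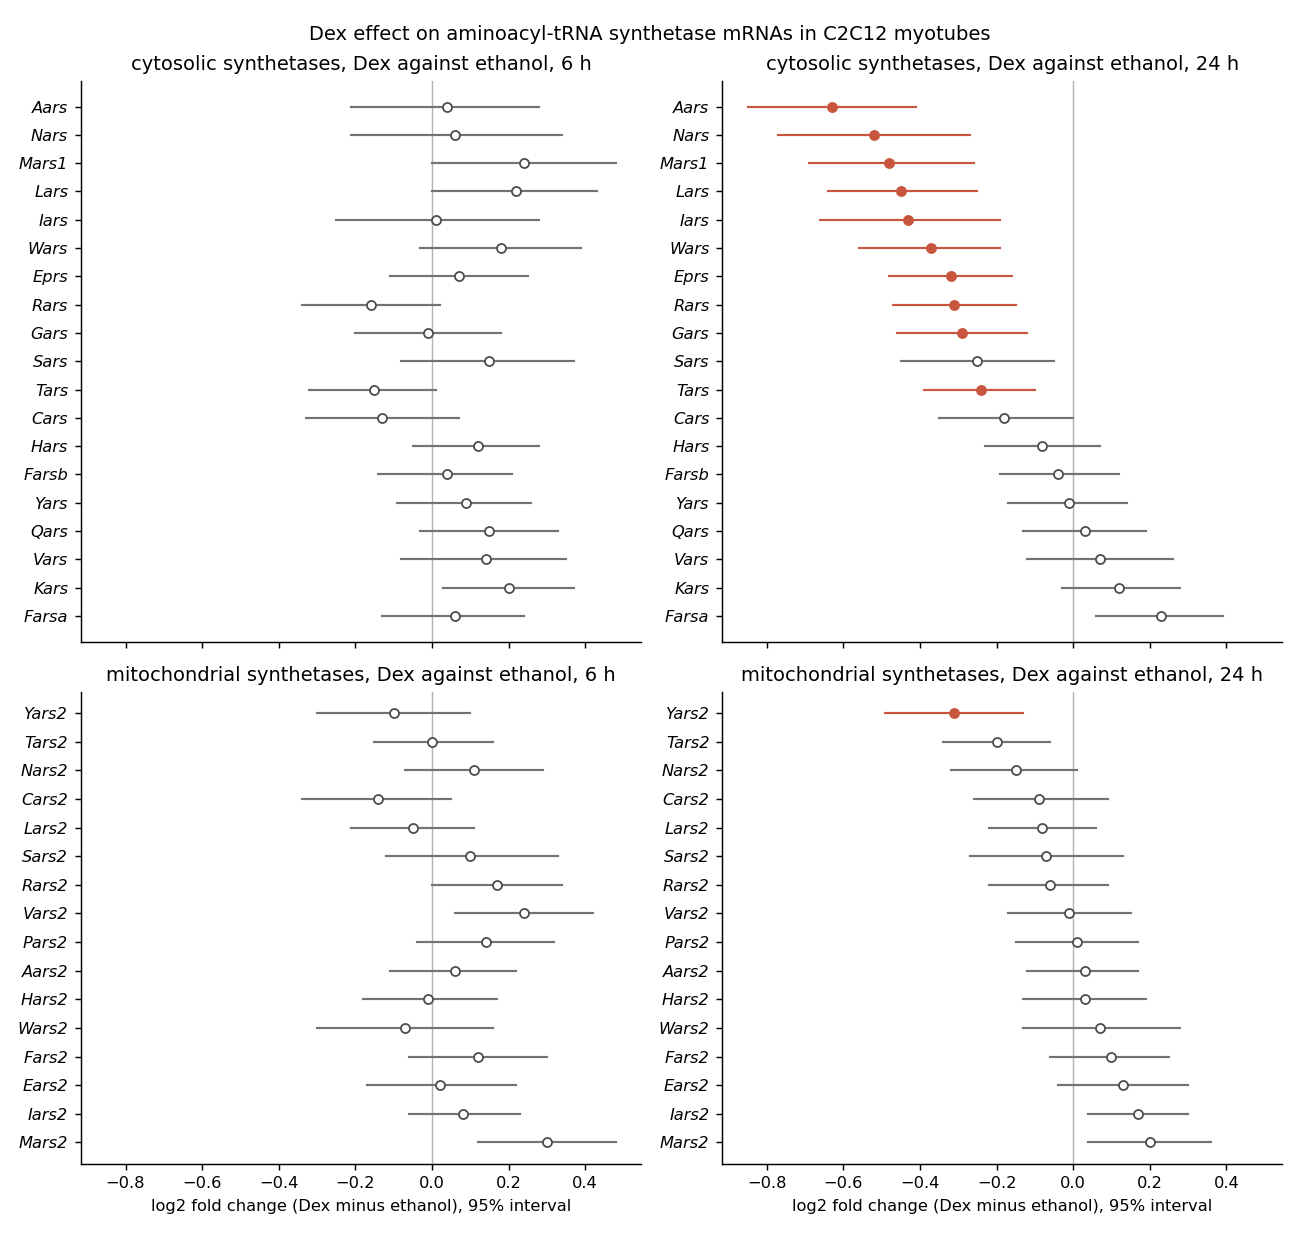
The log2 fold change of Dex over ethanol (points, horizontal axis) with its 95% interval (lines) is plotted for each synthetase at 6 h (left) and 24 h (right), with cytosolic genes above and mitochondrial genes below. Filled points mark adjusted p under 0.05, which 10 cytosolic genes from -0.63 to -0.24 and the mitochondrial gene Yars2 at -0.31 reached at 24 h and no gene reached at 6 h.

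Aars had the smallest p of the family at 24 h. It read 6040, 5410, 4130, 4840 and 4220 in the ethanol arrays and 2590, 3150, 3230, 3030 and 3870 in the Dex arrays, in the order of the replicate numbers. Every Dex array lay below every ethanol array. The mean went from 4930 ± 808 to 3180 ± 461 (SD, n = 5 per group). Its log2 fold change was -0.63 ± 0.10 (SE), and the adjusted p in limma was 0.000243. Aars lies outside the multi-synthetase complex.

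Of the 8 synthetases in the complex 7 were measured, and 5 of these fell at 24 h with a list median of -0.32. Over all genes 4.42% fell. Lars read 7760, 7290, 5610, 6440 and 5840 in ethanol and 4130, 4590, 5070, 4870 and 5440 in Dex. Mars1 read 2890, 2700, 2130, 2510 and 2170 in ethanol and 1540, 1730, 1840, 1670 and 2110 in Dex. For both genes the groups did not overlap, although the highest Dex array, number 5, came close to the lowest ethanol array, number 3. The log2 fold changes were -0.45 ± 0.09 for Lars (limma adjusted p = 0.00278) and -0.48 ± 0.10 for Mars1 (adjusted p = 0.00422).

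Eprs encodes a joined glutamyl and prolyl enzyme of the complex. Its intensity was 627, 604, 588, 622 and 547 in ethanol and 450, 493, 471, 476 and 499 in Dex. Rars read 1750, 1730, 1600, 1770 and 1610 in ethanol and 1340, 1360, 1400, 1260 and 1490 in Dex. Both were wholly lower with Dex and varied little within a group. Eprs fell by 0.32 ± 0.08 (limma adjusted p = 0.00926) and Rars fell by 0.31 ± 0.08 (adjusted p = 0.0124) on the log2 scale.

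Iars, the isoleucyl enzyme of the complex, varied most among the members that fell, with an SD of 0.27 on the log2 scale in ethanol. Its arrays read 2790, 2510, 1790, 1880 and 2050 in ethanol and 1310, 1530, 1670, 1650 and 2010 in Dex. The groups overlapped because Dex array 5 exceeded ethanol arrays 3 and 4. The log2 fold change was -0.43 ± 0.11 with a limma adjusted p of 0.0198. Without both 24 h arrays numbered 1 the call was lost, at -0.26 with an adjusted p of 0.108.

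The 2 measured members of the complex that did not pass were Kars, the lysyl enzyme, and Qars, the glutaminyl enzyme. Kars had a log2 fold change of 0.12 with a 95% interval from -0.03 to 0.28, and Qars had 0.03 with an interval from -0.13 to 0.19. The Qars arrays read 2660, 2680, 2610, 2440 and 2840 in ethanol and 2740, 2630, 2670, 2580 and 2900 in Dex. None of the 4 Qars probes and neither Kars probe was called at 24 h. Members of the complex thus had unequal values, from -0.48 to 0.12.

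Of the 12 cytosolic synthetases outside the complex 5 fell at 24 h, with a list median of -0.21. Over all genes 4.42% fell. Nars, the asparaginyl enzyme, read 2050, 1910, 1350, 1610 and 1460 in ethanol and 969, 1070, 1250, 1180 and 1340 in Dex. The lowest ethanol array lay just above the highest Dex array, so the groups were apart by a narrow margin. Its log2 fold change was -0.52 ± 0.12 with a limma adjusted p of 0.00709.

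Wars read 1160, 1100, 899, 1070 and 837 in ethanol and 676, 760, 807, 808 and 841 in Dex. Only the highest Dex array and the lowest ethanol array, both numbered 5, were out of order. The log2 fold change of Wars was -0.37 ± 0.09 with an adjusted p of 0.00846 in limma. Gars, the glycyl enzyme, whose single gene supplies both cytosol and mitochondria, read 15900, 14500, 12100, 13500 and 13100 in ethanol and 9810, 11400, 11700, 11000 and 12400 in Dex. Here too the groups overlapped at one end, where Dex array 5 exceeded ethanol array 3. Its log2 fold change was -0.29 ± 0.08 with an adjusted p of 0.0267 in limma. Tars, the last of the 5 outside the complex, gave -0.24 ± 0.07 with an adjusted p of 0.0329 in limma, from 323 ± 18 in ethanol to 273 ± 17.4 in Dex.

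**Figure D2:**
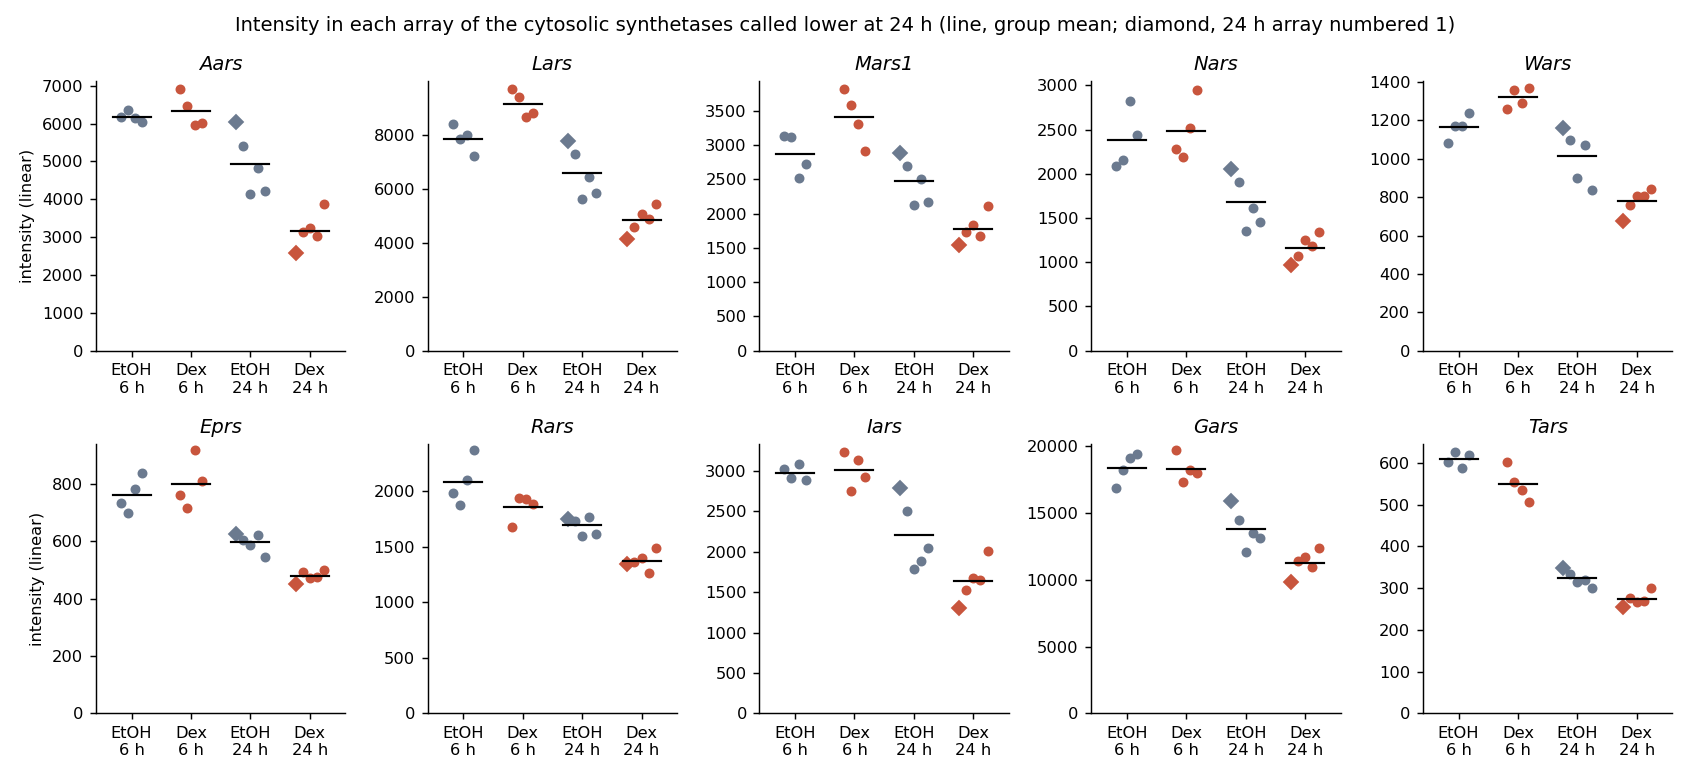
The intensity of each array (points, vertical axis, linear and starting at 0) is plotted for the 10 cytosolic synthetases called lower at 24 h, by group, with the group mean as a line and the 24 h arrays numbered 1 as diamonds. At 24 h the ethanol array numbered 1 was the highest ethanol array for 9 of the 10 genes, and the Dex array numbered 1 was the lowest Dex array for 9 of the 10.

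These calls did not rest equally on all arrays. Without both 24 h arrays numbered 1, 7 of the 19 cytosolic members were called lower and the list median was -0.19. Of the 16 mitochondrial members 1 was called, Yars2, and their median was -0.01. Over all genes 4.55% were called lower in that fit. In the complex 4 of 7 were then lower (median -0.28), and outside it 3 of 12 (median -0.11). Besides Iars, the calls lost were Gars at -0.19 (limma adjusted p = 0.122) and Tars at -0.19 (adjusted p = 0.102). In the fits without 1 array, the number called lower ran from 7 to 11, and the calls that were lost were again those of Gars, Iars and Tars, with adjusted p between 0.0518 and 0.068 in limma. Aars, Lars, Mars1, Nars, Wars, Eprs and Rars were called in each of these fits.

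The other 9 cytosolic members did not pass the test. Sars, the seryl enzyme, gave -0.25 ± 0.10 with a limma adjusted p of 0.114, and Cars, the cysteinyl enzyme, gave -0.18 ± 0.08 with an adjusted p of 0.22. Hars, Yars and Vars, the histidyl, tyrosyl and valyl enzymes, gave -0.08, -0.01 and 0.07. The alpha and beta subunits of the phenylalanyl enzyme had values of 0.23 for Farsa, with a 95% interval from 0.06 to 0.39, and -0.04 for Farsb, with an interval from -0.19 to 0.12. Farsa was the nearest cytosolic gene outside the threshold, with an adjusted p of 0.0834 in limma, and it was called higher in the model without covariates (0.0235), without ethanol array 4 at 6 h (0.0474) and without Dex array 5 at 24 h (0.0427). Hars and Yars were dim, below the median level of all genes, where a probe's background hides part of any change. Among genes above that level 10 of 17 cytosolic members fell at 24 h, against 7.8% of all such genes.

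Synthetases fall into class I and class II, which have unrelated catalytic folds. Of 9 measured class I cytosolic members 5 fell at 24 h with a median of -0.31. Of 9 class II members 4 fell with a median of -0.24, and of all genes 4.42% fell. Eprs, which joins an enzyme of each class, was counted in neither. Without both 24 h arrays numbered 1 the counts were 4 of 9 and 2 of 9, with medians of -0.26 and -0.13. In that fit 4.55% of all genes fell. The difference between the classes was not tested.

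A gene's probes were compared where the array carried several. Of the 10 genes that fell 9 had more than 1 probe, and all probes were called lower for 3 of them, Eprs, Lars and Mars1, with adjustment in limma over all 45281 probes, of which 3.09% were called lower. No probe of any synthetase was called higher. The second Lars probe gave -0.71 (adjusted p = 3.35e-06), further from 0 than the brightest one. The second Tars probe, with a mean intensity of 131 beside 399, gave 0.00, and the second Rars probe gave -0.18 (adjusted p = 0.281). Neither was called, and differences between probes were not tested. For Wars and Iars 2 of the 4 probes were called lower. For Aars and Gars the second probe was dim, with mean intensities of 81.4 and 93.5.

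Sars and Cars went the other way, since dimmer probes were called where the brightest was not. A second Sars probe gave -0.61 (limma adjusted p = 0.00104), and the 2 other Cars probes gave -0.34 (adjusted p = 0.0187) and -0.29 (adjusted p = 0.0149). When the probes of a gene were averaged in place of taking the brightest, Sars and Cars were called lower and Rars and Tars were not. Pars2, the mitochondrial prolyl enzyme, had 1 of its 3 probes at -0.31 (adjusted p = 0.00967) while its brightest probe gave 0.01.

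Mitochondrial synthetases carry out the same reaction for the ribosomes inside the organelle. Their log2 fold changes at 24 h ran from -0.31 to 0.20, with 8 above 0 and 8 below. Yars2, the tyrosyl enzyme, was the member that fell, at -0.31 ± 0.09 with a limma adjusted p of 0.0245. It read 75.2, 104, 80.7, 71.7 and 92.7 in ethanol and 73.8, 61.7, 68.2, 66.4 and 69.0 in Dex. The groups overlapped, the gene has 1 probe, and its level lay below that of the median gene. Its Dex mean of 67.8 was close to the lowest probe values of the 24 h arrays, 60.4 to 61.2. Its call was lost without ethanol array 2 (adjusted p = 0.101), without ethanol array 5 (0.0541) and without Dex array 2 (0.0756), and among the 13 mitochondrial members above the median level 0 were called.

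Tars2, the threonyl enzyme, was the nearest outside the threshold. It read 291, 284, 267, 278 and 283 in ethanol and 237, 243, 251, 244 and 245 in Dex. All Dex arrays were lower, by a log2 fold change of -0.20 ± 0.07, and the adjusted p in limma was 0.069. It was called in the model without covariates, with the mean of probes, and in 6 of the 18 fits without 1 array, with adjusted p down to 0.0354. All 6 of these fits left out a 6 h array, and the value stayed at -0.20. Mars2 and Iars2, the isoleucyl enzyme, were wholly higher with Dex at 24 h, where 8.42% of all genes were apart in that direction. Mars2 read 301, 294, 282, 277 and 278 in ethanol and 312, 329, 322, 336 and 343 in Dex, and it did not pass the test (limma adjusted p = 0.128). Iars2 had 1230 ± 42.7 in ethanol and 1390 ± 46.0 in Dex (SD, n = 5), a log2 fold change of 0.17 ± 0.06 with an adjusted p of 0.0871, and a second probe of it gave -0.10.

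For 13 amino acids a cytosolic gene was measured beside a mitochondrial gene of the same name ending in 2. Of the 13 cytosolic genes 8 fell, with a median of -0.31. Of their 13 mitochondrial counterparts 1 fell, with a median of -0.06, and of all genes 4.42% fell. Without both arrays numbered 1 the cytosolic and mitochondrial counts were 6 and 1, with medians of -0.26 and -0.03. In that fit 4.55% of all genes fell. The genes for 3 more amino acids do not pair by name, with Eprs at -0.32 beside Ears2 at 0.13 and Pars2 at 0.01, and Farsa at 0.23 and Farsb at -0.04 beside Fars2 at 0.10. By the brightest probes methionine had the widest gap, with Mars1 at -0.48 (95% interval -0.69 to -0.26) and Mars2 at 0.20 (0.04 to 0.36). Alanine followed, with Aars at -0.63 (-0.85 to -0.41) and Aars2 at 0.03 (-0.12 to 0.17). This order depended on the probe, since the second probes of Mars1 and Mars2 gave -0.30 and 0.03. With averaged probes leucine had the widest gap of these, with Lars at -0.58 and Lars2 at 0.04. Mars1 and Mars2 were then at -0.39 and 0.11, and Aars and Aars2 at -0.36 and 0.03. Isoleucine had Iars at -0.43 (-0.66 to -0.19) and Iars2 at 0.17 (0.04 to 0.30). For threonine the values of Tars and Tars2 were close, at -0.24 and -0.20, and for tyrosine the order was the opposite, with Yars at -0.01 and Yars2 at -0.31. Several mitochondrial counterparts were dim at 24 h, where a probe's background hides part of any change. Aars2 and Wars2 had means of 101 and 113 in ethanol, beside 4930 for Aars and 1010 for Wars. Others were brighter, such as Iars2 at 1230. The differences between counterparts were not tested.

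**Figure D3:**
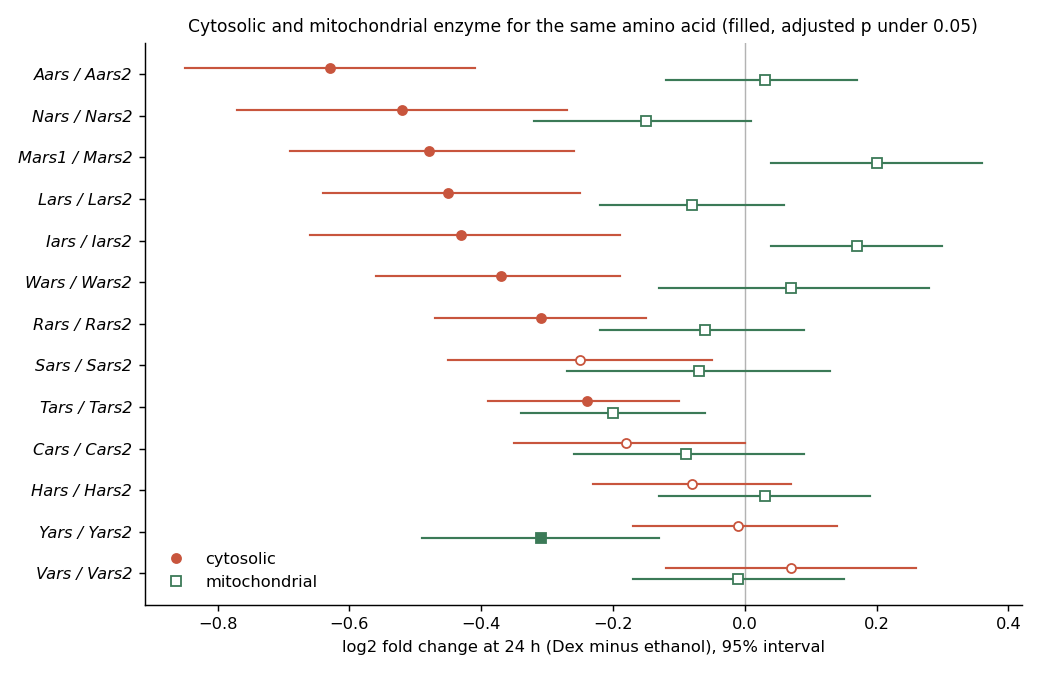
For the 13 amino acids whose genes pair by name the log2 fold change at 24 h (horizontal axis, Dex minus ethanol, 95% interval as lines) is plotted for the cytosolic gene (red circles) and the mitochondrial gene (green squares), filled where the adjusted p was under 0.05. The intervals of the counterparts do not meet for Aars and Aars2, Mars1 and Mars2, Iars and Iars2, among others, and overlap for Tars and Tars2. Several mitochondrial genes, Aars2 among them, were dim, where a probe's background hides part of any change.

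Whether the Dex effect differed between the times was tested as an interaction, the effect at 24 h minus that at 6 h, within which a shift of level between times cancels. In limma 4 synthetases were called, all cytosolic and all more negative at 24 h, against 0.619% of all genes called in that direction 0.598% in the other and 1.22% in either. They were Mars1 with -0.72 ± 0.16 (adjusted p = 0.0234), Aars with -0.67 ± 0.16 (0.0358), Lars with -0.66 ± 0.14 (0.0202) and Wars with -0.56 ± 0.13 (0.0409). At 6 h Aars read 6170, 6350, 6150 and 6040 in ethanol and 6910, 6460, 5970 and 6030 in Dex, which overlapped. Mars1 at 6 h read 3130, 3120, 2520 and 2730 in ethanol and 3820, 3590, 3300 and 2910 in Dex, again overlapping with the higher values in Dex. Of the 19 cytosolic interaction values 18 were below 0 with a median of -0.20, and of the 16 mitochondrial values 11 were below 0 with a median of -0.07, against 0.00 over all genes.

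Among the 10 genes that fell at 24 h, the other 6 were not called in the interaction, with adjusted p between 0.106 for Eprs and 0.775 for Tars. Rars and Tars had negative values at 6 h that did not pass the test, -0.16 and -0.15 (limma adjusted p = 0.388 and 0.372). Their second probes gave 0.04 and 0.06 at 6 h. The interaction values of Rars and Tars were -0.15 and -0.09. The interaction calls moved with the setting. With averaged probes 1 call was left, Lars, while the values were -0.32 for Aars (adjusted p = 0.137), -0.56 for Mars1 (0.0608) and -0.37 for Wars (0.174). The count fell to 2 without Dex array 2 at 6 h and also without ethanol array 2 at 24 h, where Aars and Wars had adjusted p between 0.0533 and 0.0601. Without both 24 h arrays numbered 1 it was 3, with Wars at -0.45 (adjusted p = 0.0557). Of all genes 0.603% were called in the interaction with averaged probes and 1.54% without both arrays numbered 1. The shares were 1.17% without Dex array 2 at 6 h and 1.01% without ethanol array 2 at 24 h.

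The cytosolic members varied together from array to array at 24 h. For each array the log2 values of a list were averaged after subtraction of each gene's mean in the ethanol arrays of that time. The cytosolic mean was 0.15, 0.08, -0.12, -0.01 and -0.11 in the ethanol arrays and -0.36, -0.22, -0.20, -0.23 and -0.07 in the Dex arrays. Dex array 5 alone lay within the ethanol range. It was the highest Dex array for 16 of the 19 cytosolic members, ethanol array 1 was the highest ethanol array for 14, and Dex array 1 was the lowest Dex array for 14. For the 16 mitochondrial members these counts were 3, 7 and 8. The arrays numbered 1 deviated in opposite directions across all genes, not only in the synthetases. The mitochondrial mean stayed between -0.04 and 0.03 in the ethanol arrays and between -0.04 and 0.01 in the Dex arrays.

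At 6 h the cytosolic mean lay between -0.02 and 0.02 in ethanol and between 0.05 and 0.09 in Dex, and the mitochondrial mean between -0.02 and 0.04 in ethanol and between 0.04 and 0.11 in Dex. The spread of single genes within a group differed in the same way between the lists at 24 h. The median SD of the cytosolic members at 24 h was 0.13 in ethanol and 0.12 in Dex on the log2 scale, against 0.08 and 0.09 over all genes and 0.09 and 0.08 for the mitochondrial members. At 6 h it was 0.10 in both groups, against 0.11 and 0.10 over all genes.

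**Figure D4:**
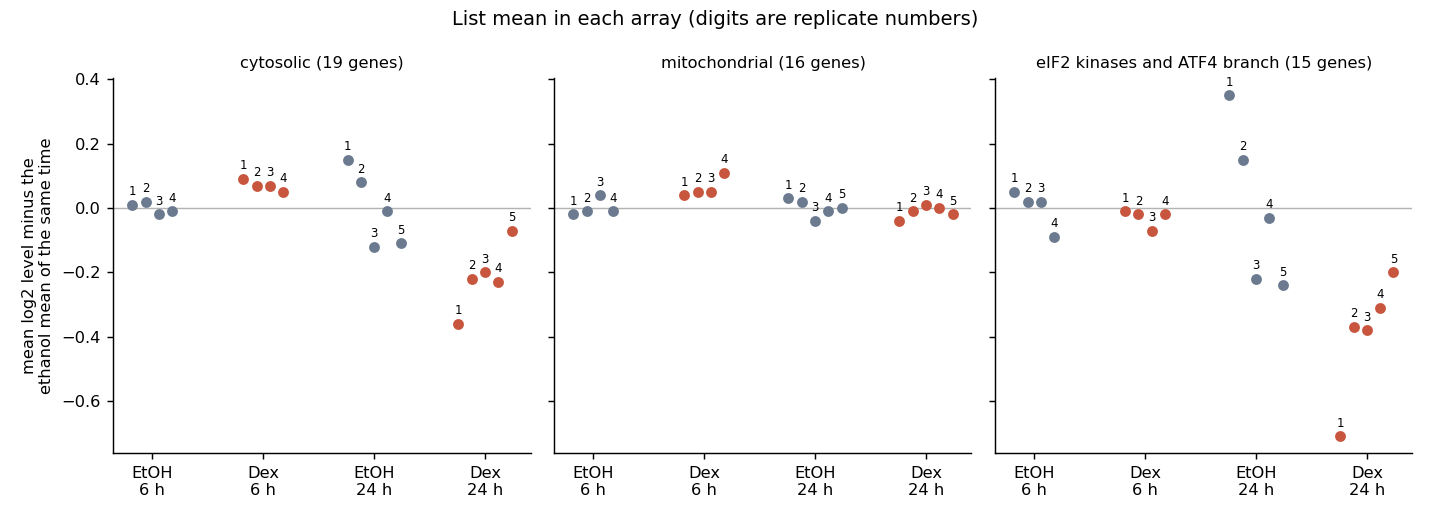
The mean log2 level of a list minus its ethanol mean of the same time (vertical axis) is plotted for each array, with digits for replicate numbers, for the cytosolic synthetases, the mitochondrial synthetases and the list of eIF2 kinases and genes around Atf4. At 24 h the cytosolic list runs from -0.12 to 0.15 in ethanol and from -0.36 to -0.07 in Dex, and the list around Atf4 from -0.24 to 0.35 in ethanol and from -0.71 to -0.20 in Dex.

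Genes around the synthetases were read in 4 lists. The eIF2 kinases and the Atf4 branch had 15 of 16 members measured. At 24 h 7 fell and 2 rose in limma, with a median of -0.39, and at 6 h 0 fell and 1 rose, with a median of -0.05. Over all genes 4.42% fell and 4.47% rose at 24 h, and 1.98% fell and 2.48% rose at 6 h. Chac1, a glutathione-degrading enzyme, went from 3760 ± 1440 to 1380 ± 407 at 24 h (log2 fold change -1.41, adjusted p = 4.33e-05). Trib3, a pseudokinase, fell by 1.79 (adjusted p = 0.000153), and Asns, the asparagine synthetase, fell by 1.13 (adjusted p = 0.000669) on the log2 scale. Cebpb, a C/EBP transcription factor, rose by 0.77 at 6 h (adjusted p = 0.000339) and by 0.64 at 24 h (adjusted p = 0.000522).

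Atf4 itself and Eif2ak4, the gene of Gcn2, were picked out after their values had been seen, as was Eif2ak1, another eIF2 kinase. Atf4 went from 8610 ± 1130 to 6470 ± 658 at 24 h, a log2 fold change of -0.41 with a limma adjusted p of 0.00422. Eif2ak4 had 0.00 at a dim intensity near the array median, where a probe's background hides part of any change. Eif2ak1 rose from 440 ± 18.6 to 570 ± 19.3, a log2 fold change of 0.37 with an adjusted p of 0.00239 in limma and groups wholly apart. No member of this list was called in the interaction, where 7 of 15 had an unadjusted p under 0.05, as did 2493 of all 19057 genes. The list also moved with the 24 h arrays numbered 1, its mean being 0.35 in ethanol array 1 and -0.71 in Dex array 1. Its values overlapped between the groups at 24 h. Without both arrays numbered 1, 6 members fell, 2 rose and the median was -0.14, Sesn2 having lost its call (adjusted p = 0.0995). In that fit 9.14% of all genes were called and 4.55% were called lower.

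Among the 7 cytosolic elongation factors 1 was called at 6 h and 2 at 24 h, against 4.46% and 8.89% of all genes. Eif5a, the hypusine-modified factor, fell by 0.55 at 6 h (limma adjusted p = 0.00108) and by 0.37 at 24 h (adjusted p = 0.00994). Eef1d, a subunit of the exchange factor of Eef1a, rose by 0.25 at 24 h (adjusted p = 0.0355). Its call was lost with the mean of its probes (0.10, adjusted p = 0.244) and with normexp (0.0625). It was also lost in several fits without 1 array of the 24 h groups (0.0516 to 0.0658). Eef1a1, which carries the charged tRNA to the ribosome, gave 0.04 at 6 h and -0.05 at 24 h. The list medians were 0.04 and -0.01. Without both 24 h arrays numbered 1 the list had 1 member higher and 1 lower at 24 h, with a median of -0.01. Of all genes 9.14% were called in that fit.

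Of the 3 scaffold proteins that hold the multi-synthetase complex together, 1 rose and 0 fell at 24 h. Over all genes 4.47% rose and 4.42% fell. Aimp2 rose from 1340 ± 112 to 1660 ± 71.5 at 24 h, a log2 fold change of 0.32 ± 0.08 with a limma adjusted p of 0.0113 and groups wholly apart. Aimp1 and Eef1e1 gave 0.07 and 0.06 and did not pass. The 11 mitochondrial aminoacylation and translation factors had 0 calls in limma at either time, with 0 and 1 at an unadjusted p under 0.05 (2998 and 4207 of all genes) and medians of 0.03 and -0.03. Without both 24 h arrays numbered 1, 1 scaffold gene was called higher and 0 of these factors were called at 24 h, against 9.14% of all genes. Gatb, Gatc and Qrsl1, which form glutaminyl-tRNA in mitochondria in place of a synthetase, gave -0.19, 0.02 and 0.17 at 24 h.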

How the data were processed

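Total RNA was measured on Illumina mouse whole-genome arrays. The deposited values are linear probe intensities that the authors made with lumi, per the submitters' processing notes; the sources used here do not give its version, background correction or normalization. The planned tests assumed log2 values, and the linear intensities were therefore log2-transformed (pseudocount 0). Detection p-values were not used here, and background left in a dim probe shrinks its fold change.

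Of 45281 probes 34885 had 1 gene symbol, 18 several and 10378 none, and the brightest probe stood for each of 19057 genes. Symbols were updated to GRCm38.p6. One model of 4 group means over 18 arrays was fitted with limma 3.58.1 in R 4.3.3 and tested on simulated data. Within a time, 1 array direction at 6 h and 3 at 24 h held under 0.01% of the spread of genes with mean log2 above 12, and these 4 entered as covariates, leaving 10 residual degrees of freedom. They do not alter fold changes. Calls were made at an adjusted p below 0.05, with Benjamini-Hochberg adjustment over all genes, and intervals cover 95%.

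The members and gene lists were chosen with earlier results of these data known, so lists are described by counts and medians only. Array values are printed for up to 10 called members by smallest p at 24 h, and beyond that rule for Qars, Tars2 and Mars2 at 24 h and for Mars2, Lars, Wars, Aars and Mars1 at 6 h, chosen after their values were seen. Alternatives were a model without covariates, the mean of probes, quantile normalization, normexp with offset 50, brighter genes only, array weights, each time alone, the replicate number as a block, and fits without arrays. Fits without 1 array had 3 covariates in place of 4, so a call can change there while the fold change stays the same. The number of arrays, 4 or 5 per group, limits the precision. Not every promoter match is reported here.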

Additional observations from a re-analysis of the deposited data

Results flagged for a closer look

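Single arrays stood far from their group in 5 of 140 groups of member values, by Dixon's 95% criterion, and chance alone marks about 1 group in 20. Kars was highest in Dex array 5 at 24 h, at 1760 against 1550 for the next. Cars2 was highest in ethanol array 4 at 24 h, at 248 against 228. Pars2 was lowest in ethanol array 3 at 24 h, at 112 against 127, and highest in Dex array 3, at 143 against 125. Sars2 was highest in ethanol array 3 at 24 h, at 116 against 92.3.

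The Dex effect differed between 24 h and 6 h in the interaction test for 4 cytosolic synthetases. The difference on the log2 scale was -0.72 for Mars1, -0.67 for Aars, -0.66 for Lars and -0.56 for Wars.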

How the results depend on the processing

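Across the alternatives no value that was called changed its sign. The count of synthetases called at 6 h, 0 as reported, was 2 in the model without covariates, where 9.06% of all genes were called. It was 1 among brighter genes only, with the replicate block and without both 24 h arrays numbered 1. Of the genes in those fits 9.26%, 6.4% and 5.88% were called. Cytosolic genes called higher at 24 h numbered 1 without covariates, where 1598 of all 19057 genes were higher. Mitochondrial genes called at 24 h numbered 4 without covariates, 2 with the mean of probes and 0 among brighter genes only. The shares of genes called in those fits were 16.5%, 7.62% and 16.6%. The interaction count was 1 with the mean of probes, against 0.603% of all genes. Without 1 array, the ranges were 0 to 1 at 6 h, 7 to 11 cytosolic lower, 0 to 1 cytosolic higher, 0 to 2 mitochondrial, 2 to 4 in the interaction, -0.31 to -0.22 for the cytosolic median and -0.02 to 0.02 for the mitochondrial median. With normexp Tars had an adjusted p of 0.0537 and the Wars interaction 0.0554 in limma, and with array weights the latter had 0.0511. The cause was not tested.

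Over all genes 850, 1694 and 232 were called at 6 h, at 24 h and in the interaction, against 1726, 3142 and 942 without covariates. The interaction count was 115 with the mean of probes, 532 with the replicate block and 192 to 372 without 1 array. Deviations of same-numbered samples correlated from -0.08 to 0.26 at 6 h (0.05 to 0.41 among brighter genes) and from -0.93 to -0.19 at 24 h (-0.96 to -0.22). Not every pair was above 0.1 and those at 24 h ran opposite, so the numbers were not taken as pairs. The replicate block left 10 cytosolic genes lower at 24 h and called Eprs in the interaction (adjusted p = 0.0405 in limma).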
